A study of Rattus norvegicus with 12 samples.

Results

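The GATA transcription factors are a family of 6 genes, Gata1 to Gata6, and each was measured by 1 probe on a rat expression array. The members were chosen by gene symbol, as the probes whose platform symbol is one of these 6 names, and they are 6 of the 13337 genes with a named probe. The family itself was chosen from the values on these same arrays, so levels and differences of its members are given with their spread and with no p-value, and how many of them passed a fit is given only as a count beside the share of all features. All samples came from BDX rats. Cells labelled endothelial cells (EC), from aorta, were starved overnight and then kept for 24 h in medium with 2% serum, either alone (2 arrays) or with 10 ug/ml of exosomes, which are small vesicles that cells release. The exosomes came either from AS, a rat pancreas carcinoma line (2 arrays of treated EC), or from AS-Tspan8, the same line with stable expression of Tspan8, a membrane protein of the tetraspanin family (2 arrays of treated EC). RNA of the exosomes themselves, collected from serum-free supernatant after the tumour cells had been starved for 36 h, was measured on 2 arrays per line. RNA of the cells of each tumour line was measured on 1 array, and the sources used here do not say whether AS-Tspan8 is a single clone.

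GATA proteins carry a pair of zinc fingers and bind DNA at short sites built around the letters GATA, usually together with partner proteins such as the FOG cofactors Zfpm1 and Zfpm2. Gata1, Gata2 and Gata3 are known as the blood group of the family: Gata1 for red cells, platelets and mast cells, Gata2 for blood stem cells and endothelium, and Gata3 for T cells and epithelia such as the breast. Gata4, Gata5 and Gata6 are known from heart, gut and gonad, and Gata6 also from vascular smooth muscle and, with Gata4, from the growth of the pancreas.

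The label of the EC arrays was set against marker genes. Of 16 endothelial markers with a probe, 3 (Egfl7, Clec14a and Ramp2) were detected on all 6 EC arrays, and the same 3 on both tumour cell arrays. Cdh5, Vwf, Tek, Tie1, Nos3 and 7 others were detected on none of the 6 EC arrays. Of 12 fibroblast markers, 11 were detected on all 6 EC arrays, with a summed signal of 65776 to 81290 against 3182 to 3189 in the tumour cells. The cells are therefore called EC here as the labels do, and the defining endothelial genes are absent from them at the detection limit. On the tumour cell arrays 3 of 8 pancreatic epithelial and tumour markers (Krt7, Krt8 and Krt19) were detected in both lines, and Epcam and Cdh1 in neither. A probe is called detected where its detection p-value is under 0.01. By that limit 8563 to 8923 probes were detected on the EC arrays, 9269 and 9389 on the cell arrays of AS and AS-Tspan8, and 2104 to 3604 on the exosome arrays. The summed signal of the exosome arrays, 2390577 to 2924133, was also below that of every cell array, 10383650 to 21955880. Where nothing in the labels says that 2 arrays came from separate cultures, the spread between them may be technical. With 2 arrays or 1 per group, their number limits the precision of every value below.

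Gata6 was the only member detected on all 12 arrays. In the EC, Gata2 and Gata6 were the 2 members of 6 detected on all 6 arrays, where 45.4% of all named genes were. In the tumour cells Gata2, Gata4 and Gata6 were detected in both lines and Gata3 in AS-Tspan8 alone. That is 3 of 6 members in both lines, where 48.6% of all named genes were. Gata1 and Gata5 were detected on none of the 12 arrays. The exosome arrays detected Gata6 on all 4, where 6.37% of all named genes were detected on all 4, and Gata2 on 1. These counts describe a family chosen from these values and support nothing about it.

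**Figure D1:**
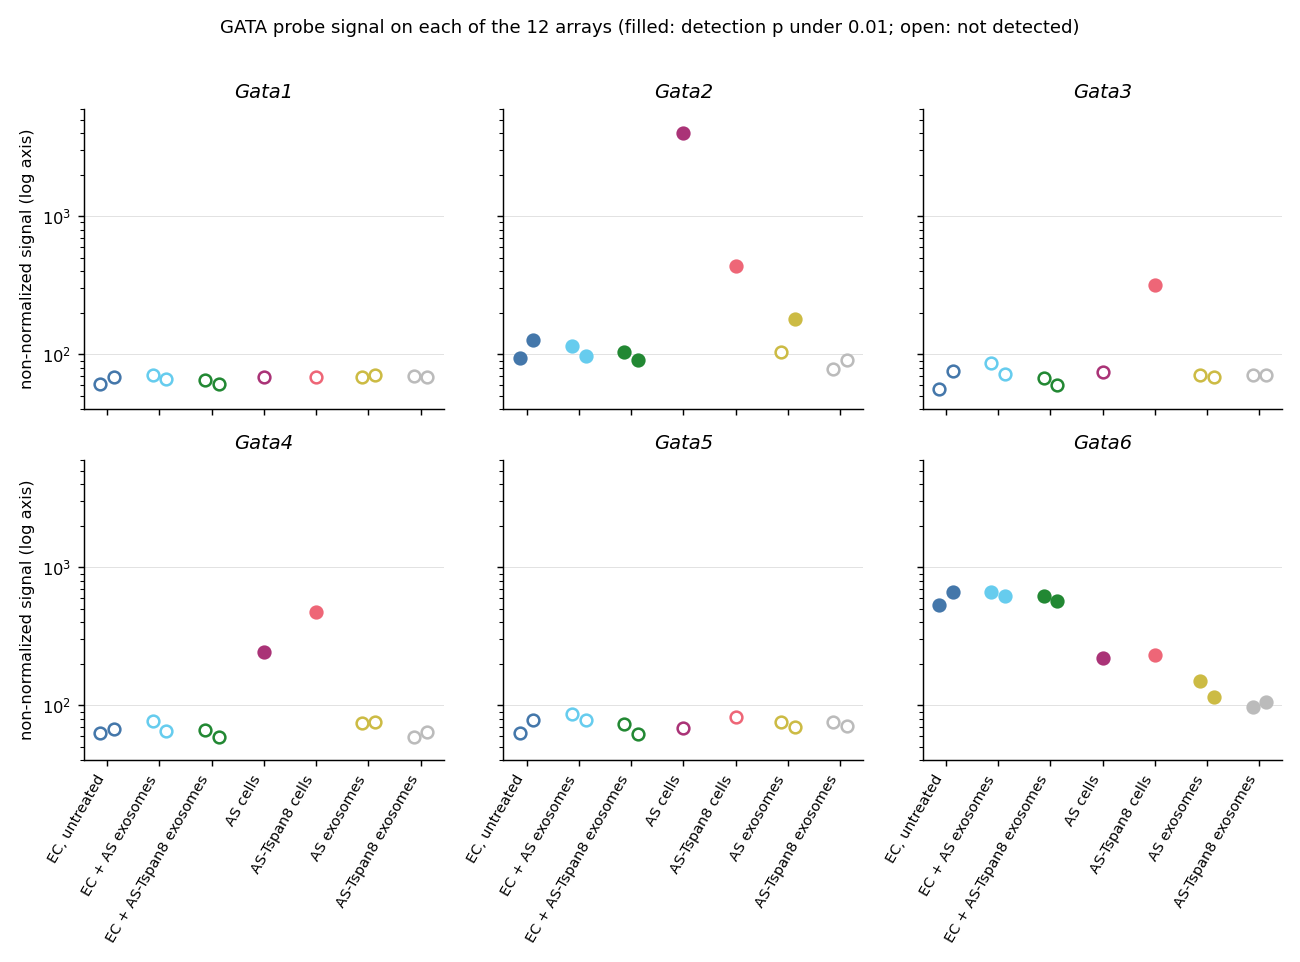
Non-normalized signal of the 1 probe of each GATA gene (vertical axis, log scale, arbitrary units) on each of the 12 arrays, grouped by sample type along the horizontal axis. Each point is 1 array, filled where the detection p-value is under 0.01 and open otherwise. Gata6 was detected everywhere and lay at 531 to 666 in the EC, Gata2 reached 3970 in AS cells, Gata3 was detected only in AS-Tspan8 cells and Gata4 only in the 2 tumour lines.

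Gata6, a factor of heart, gut and smooth muscle, lies on rat chromosome 18 at 2460909 to 2492322 in the GRCr8 build, in which all gene positions here are given from RefSeq. Its signal was 531 and 660 in untreated EC, 666 and 623 in EC with AS exosomes, and 621 and 567 in EC with AS-Tspan8 exosomes. The tumour cells gave 221 (AS) and 231 (AS-Tspan8), and the exosomes 149 and 115 (AS) and 97.2 and 106 (AS-Tspan8). In signal the range of untreated EC overlapped that of both treated groups. The 2 treated groups did not overlap in signal, by 623 against 621, but did after normalization (9.13 and 9.20 against 9.19 and 9.18, log2). Untreated EC then lay below both, at 8.95 and 9.08. Of all features, 17.7% did not overlap between the treated groups, and 23.2% and 25.1% between untreated EC and each. Every EC array lay above both tumour cell arrays in signal, and every exosome array below both. For untreated EC against tumour cells 78.9% of all features did not overlap, and for exosomes against cells 75.1%, after normalization. In mean signal the order was EC with AS exosomes at 644 ± 30.7 (SD, n = 2), untreated EC at 596 ± 91.6, EC with AS-Tspan8 exosomes at 594 ± 38.1, AS-Tspan8 cells, AS cells, AS exosomes at 132 ± 24.2 and AS-Tspan8 exosomes at 102 ± 6.09. Neighbours among the EC groups did not differ beyond their spread, and the 2 cell lines, at 231 and 221, lay closer together than the arrays of untreated EC. On the exosome arrays the detection p-values of Gata6 were 0.00485 to 0.00848, close to the limit, while on the EC arrays they were 0. The 120 bases before its RefSeq start, chr18:2460789-2460908 on the plus strand of GRCr8, are shown because Gata6 is the member with the most signal in the EC:
Gata6: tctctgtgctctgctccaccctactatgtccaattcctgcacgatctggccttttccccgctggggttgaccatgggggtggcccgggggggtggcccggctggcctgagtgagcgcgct

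Gata2, the factor of blood stem cells and endothelium, lies on chromosome 4 at 122211501 to 122225058. Its signal was 94.5 and 128 in untreated EC, 114 and 98.0 in EC with AS exosomes, and 104 and 90.9 in EC with AS-Tspan8 exosomes. The AS cell array reached 3970 and the AS-Tspan8 cell array 437. The AS exosome arrays gave 104 and 180, the AS-Tspan8 exosome arrays 77.9 and 90.4, and only the array at 180 passed the detection limit. Both tumour lines lay above all EC arrays. After normalization 78.9% of all features did not overlap, in either direction, between untreated EC alone and these lines. AS lay far above AS-Tspan8, and the 3 EC groups overlapped. The EC arrays passed the limit at detection p-values of 0.00364 to 0.00606 and none of them at 0.001, so the level in EC was close to what the array can see. The 120 bases before its start, chr4:122216161-122216280 on the plus strand of GRCr8, are shown because Gata2 is the member that differed most between the 2 tumour lines. This start, the one in the promoter table, lies inside the annotated span of the gene given above:
Gata2: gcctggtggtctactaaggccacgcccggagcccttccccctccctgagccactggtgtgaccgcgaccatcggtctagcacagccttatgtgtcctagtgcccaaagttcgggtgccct

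Gata4, which works in heart, gonad and endoderm, lies on chromosome 15 at 41635572 to 41707252. Its signal reached 242 on the AS cell array and 477 on that of AS-Tspan8. On the other 10 arrays it was between 58.8 and 77.4 and was not detected. Both tumour lines therefore stood clear of all EC and exosome arrays, with the exosomes of the same lines at 58.8 to 76.0 and the EC at 59.1 to 77.4. Of all features, 78.9% did not overlap between untreated EC alone and tumour cells, and 75.1% between exosomes and tumour cells, after normalization and in either direction.

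Gata3, the factor of T cells and breast epithelium, lies on chromosome 17 at 73544234 to 73575670. Its signal was 319 in AS-Tspan8 cells, where it was detected, and 74.1 in AS cells, where it was not. On the 6 EC arrays it was 56.2 to 86.1, and on the 4 exosome arrays 68.7 to 71.4. One array therefore held all the signal of Gata3, and it was not detected in the exosomes of the same line. The 120 bases before its start, chr17:73553428-73553547 on the plus strand of GRCr8, are shown because this is the member seen in 1 line only. Here too the start in the promoter table lies inside the span given above:
Gata3: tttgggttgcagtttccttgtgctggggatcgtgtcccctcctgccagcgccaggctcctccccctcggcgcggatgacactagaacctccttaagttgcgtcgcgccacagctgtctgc

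Gata1, the red cell and platelet factor, lies on chromosome X at 17193291 to 17209462 and had signals of 60.9 to 71.0 over the 12 arrays. Gata5, a factor of heart valves and gut, lies on chromosome 3 at 187796140 to 187804327 and had signals of 62.0 to 86.7. Their lowest detection p-values were 0.361 and 0.115, so neither approached the limit on any array. Red cell markers were also mostly undetected: of 6 erythroid markers 5 were detected on none of the EC arrays and 5 on neither tumour cell array. Among blood cell targets of GATA factors, most of which the EC did not show, Gp1bb was detected on all 6 EC arrays at 195 to 281. It was at 270 in AS and 841 in AS-Tspan8 cells. Hdc was detected in untreated EC at 112 and 124, in AS cells at 155 and in AS-Tspan8 cells at 175.

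The first question of the design is whether exosomes change the RNA of EC within 24 h, and Gata2 and Gata6 were the 2 members that could be fitted there. For Gata6 the difference from untreated EC was 0.15 ± 0.16 (log2 ± SE of the normalized level) with AS exosomes and 0.17 ± 0.16 with AS-Tspan8 exosomes. Between the 2 treatments it was 0.02 ± 0.16, which turned to -0.10 ± 0.22 without scaling between arrays. For Gata2 the differences were -0.25 ± 0.18 with AS exosomes, -0.17 ± 0.18 with AS-Tspan8 exosomes and 0.08 ± 0.18 between the treatments. Each of these was within about 1.5 times its standard error, and the untreated arrays are shared by the first 2 comparisons. Neither of the 2 genes was called in any of the 3 comparisons, in which 0% of 9025 features passed an adjusted p of 0.05 in limma's moderated test with Benjamini-Hochberg adjustment. At an unadjusted p under 0.05 there were 62, 116 and 51 features, where an even spread of p-values would give 451. Without replicate 1 of EC with AS-Tspan8 exosomes there were 924 such features against untreated EC and 664 against EC with AS exosomes, above that number, and 0 features were called. Gata1, Gata3, Gata4 and Gata5 did not pass the filter on dim probes in the EC.

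Genes that GATA factors work with or act on were taken from 10 lists of textbook partners and targets. In the 3 comparisons of EC none of their members passed the test, out of 10 partners, 10 genes with related zinc fingers or of the NuRD complex, and 1 to 5 members of each target list. The partners had medians of -0.05, -0.06 and -0.01 on the log2 scale, where all features had medians within 0.01 of 0. Among the members with the lowest p, Smad4, which carries TGF-beta signals to the nucleus, differed by 0.25 ± 0.16 with AS exosomes and by 0.26 ± 0.16 with AS-Tspan8 exosomes. Edn1, the vasoconstrictor endothelin and a known Gata2 target, had signals of 756 and 1010 in untreated EC, 635 and 628 with AS exosomes, and 795 and 325 with AS-Tspan8 exosomes. Its differences from untreated EC were -0.49 ± 0.41 and -0.73 ± 0.41. Tnnt2, cardiac troponin T, had 191 and 163 in untreated EC, 187 and 187 with AS exosomes, and 122 and 101 with AS-Tspan8 exosomes. Its difference of -0.89 ± 0.28 between EC with AS-Tspan8 exosomes and untreated EC had an adjusted p of 1 in limma, although the 2 arrays with AS-Tspan8 exosomes were below the other 4. Groups of 2 that do not overlap were common, at 25.1% of all features in that comparison. That share is for 2 arrays against 2 in either direction, and no share was taken for 2 arrays against the other 4.

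Untreated EC and the tumour cells differed in which GATA genes they held. This comparison sets 2 arrays of EC against the mean of the 2 tumour lines, which are not replicates of each other, and cell type and origin of the RNA cannot be told apart from the line. With 1 array per line, the standard errors and adjusted p-values of this comparison, list genes included, rest on the spread between EC arrays, and the tumour arrays are assumed to vary like them. In bulk RNA, fewer cells that express a gene and less RNA per cell cannot be told apart either. With the 8 cell arrays normalized together, Gata6 was 2.49 ± 0.15 higher in untreated EC on the log2 scale, or 5.6-fold. Taken by line, Gata6 in EC was 4.18-fold above AS cells and 7.52-fold above AS-Tspan8 cells, and 3.22-fold and 3.16-fold without scaling between arrays. Gata2 was lower in EC by 3.61 ± 0.18, a mean over lines that differ: AS cells were 54.6-fold above EC and AS-Tspan8 cells 2.75-fold, and 67.9-fold and 6.54-fold without scaling. Gata4 was not detected in EC and was at least 4.19-fold higher in AS and at least 4.75-fold higher in AS-Tspan8 cells, where the bounds without scaling were 4.88 and 10.8. Gata3 was at least 3.05-fold higher in AS-Tspan8 cells than in EC (at least 6.69-fold without scaling), and in AS cells neither group was above background. These bounds set the tumour cell value against the lowest detected signal on the EC arrays. The 3 members that passed the filter (Gata2, Gata4 and Gata6) were all called, 1 higher and 2 lower in EC. Gata4 passed the filter through the tumour cell arrays alone, so its direction followed from the filter. Each list gene given with a bound in this comparison likewise passed it through its brighter group alone. Of 9972 features 53.9% were called, 24.8% higher and 29.1% lower in EC, so a call is common here and, since the family was chosen on these arrays, its count is a description. Without scaling, the median of all features moved to -0.78, and Gata6 was at 1.67 ± 0.20 and Gata2 at -4.40 ± 0.24. Without background correction Gata6 was at 1.94, Gata2 at -2.81 and Gata4 at -1.62, and in the authors' processed table they were at 1.81, -2.67 and -1.49. All 3 kept their directions, but the sizes moved, in the authors' processed table by over 1.5-fold. Both Gata4 values, without background correction and in that table, lie below the bounds given above.

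Of the partners of GATA factors, 6 of 11 tested members were higher and 2 lower in EC, where 24.8% and 29.1% of all features were, with a median of 0.54 against -0.01 for all features. Zfpm2, the FOG protein that binds Gata4 and Gata6, had 397 and 511 in untreated EC and 63.8 and 73.2 in AS and AS-Tspan8 cells. It was detected on all 6 EC arrays and in neither tumour line, at least 13.5-fold higher in EC (adjusted p = 0.000143, limma). It passed the filter on dim probes through the EC arrays alone. Hey2, a Notch target that can repress GATA activity, had 165 and 216 in untreated EC, 69.9 in AS cells, where it was not detected, and 173 in AS-Tspan8 cells. It was called higher in EC (adjusted p = 0.00147) as a mean over unlike lines, and the AS-Tspan8 value lies within the untreated EC range. Lyl1, a partner of Gata2 in blood progenitors, went the other way, with 362 in AS cells, 224 in AS-Tspan8 cells and 64.9 and 79.0 in untreated EC. It was not detected on any EC array and was at least 3.68-fold higher in the tumour cells (adjusted p = 0.000121). The family of related zinc fingers and NuRD subunits had 2 of 10 tested members higher and 3 lower in EC, shares near those of all features (24.8% and 29.1%). Rbbp7, a histone-binding subunit detected on 1 of the 2 untreated EC arrays, was lower in EC by 1.59 ± 0.30, and Mbd3, the methyl-binding subunit, by 0.98 ± 0.17. Trps1, a GATA-type repressor, was detected in neither tumour line and was at least 1.6-fold higher in EC (adjusted p = 0.009, and 0.0563 without EC replicate 2).

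**Figure D2:**
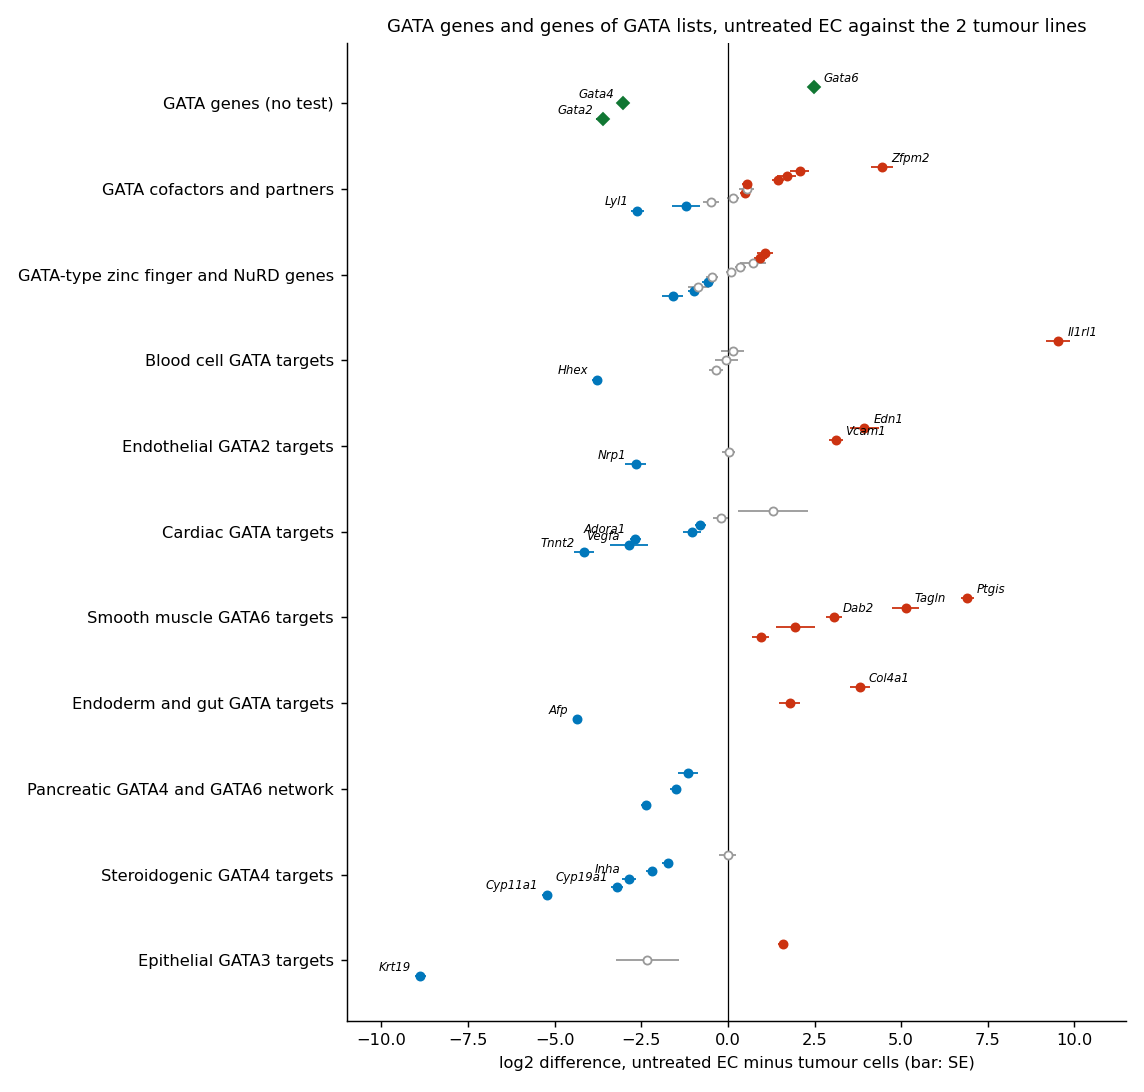
Difference in normalized level between untreated EC and the mean of the 2 tumour lines (horizontal axis, log2, above 0 higher in EC) for the fitted GATA genes (green diamonds, no test) and for each tested gene of the 10 lists (circles). Bars are standard errors, filled circles passed an adjusted p of 0.05 (red higher and blue lower in EC) and open ones did not. All 5 tested smooth muscle targets lie to the right and all 3 tested genes of the pancreatic network to the left. Of these, Ptgis and Tagln passed the filter on dim probes through the EC arrays alone, and Onecut1 and Hes1 through the tumour cell arrays alone.

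Of 9 smooth muscle targets of Gata6 with a probe, 5 could be tested, and these 5 were called higher in untreated EC, where 24.8% of all features were, with a median of 3.06. Ptgis, prostacyclin synthase, had 2950 and 3410 in untreated EC against 79.2 and 99.6 in AS and AS-Tspan8 cells, at least 100-fold. Tagln, transgelin of the contractile apparatus, had 971 and 874 against 80.6 and 97.2, at least 29.0-fold. Dab2, an adaptor protein, had 4580 and 5090 against 564 and 2120, a difference of 3.06 ± 0.22. The other 4, Cnn1, Myocd, Des and Lmod1, were detected on no EC array and in neither tumour line. The fibroblast markers given above move with this list, and their part in it was not tested.

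Targets known from endothelium and blood gave mixed results. Of 4 tested endothelial Gata2 targets, Edn1 (3.94 ± 0.42) and Vcam1 (3.12 ± 0.19) were higher in EC and Nrp1, a receptor for semaphorins and VEGF, was lower (-2.66 ± 0.31). Of all features 24.8% were called higher and 29.1% lower in EC. Vcam1, a leukocyte adhesion molecule, had 2090 and 1780 in untreated EC, 98.3 in AS and 3230 in AS-Tspan8 cells, so its mean hides 2 unlike lines. Of 13 endothelial targets with a probe, 9 were detected on none of the EC arrays, among them Vwf, Cdh5 and Tek. Of 5 tested blood targets 2 were called, where 53.9% of all features were. Il1rl1, the receptor of interleukin 33 and a Gata2 target in mast cells, had 25600 and 10800 in untreated EC and 68.6 and 70.9 in the tumour cells, at least 465-fold higher in EC. Hhex, a homeobox gene, was at least 7.38-fold higher in the tumour cells. Of 22 blood targets with a probe, 18 were detected on none of the EC arrays.

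Of 18 cardiac targets with a probe 7 could be tested, of which 5 were lower in EC and 0 higher (median -1.04), where 29.1% of all features were lower. Of these 5, Adora1 passed the filter on dim probes through the tumour cell arrays alone, so its direction followed from the filter. Tnni3, also among them, was detected on neither untreated EC array. Tnnt2 differed most, with 191 and 163 in untreated EC, 6150 in AS and 2590 in AS-Tspan8 cells (-4.15 ± 0.29, adjusted p = 0.000133). Of further genes of heart muscle, Tnni3 (104 and 128) and Tnnc1 (89.9 and 112) were detected in AS and AS-Tspan8 cells, at lower signals. Myh6, Myh7, Actc1, Myl7, Ryr2 and Nppa were detected in neither tumour line. Of 10 steroid hormone genes with a probe 6 could be tested, of which 5 were called lower in EC (median -2.52), where 29.1% of all features were. Cyp11a1, Cyp19a1 and Hsd3b1 of these passed the filter through the tumour cell arrays alone. Cyp11a1, which cuts cholesterol to start steroid synthesis, had 55.0 and 70.2 in untreated EC, 2250 in AS and 801 in AS-Tspan8 cells, at least 19.6-fold higher in the tumour cells. Cyp19a1, the aromatase that makes oestrogen, had 65.4 and 88.2 in untreated EC, 93.7 in AS and 3460 in AS-Tspan8 cells, at least 6.09-fold as a mean of unlike lines. Inha, the inhibin alpha chain, had 113 and 138 in untreated EC, 1340 in AS and 732 in AS-Tspan8 cells (-2.85 ± 0.20, adjusted p = 0.000129). Of 8 genes of the pancreatic network with a probe 3 could be tested, and these were called lower in EC, where 29.1% of all features were. They were Onecut1 (at least 2.85-fold), Hes1 (at least 1.78-fold) and Rbpjl (-1.15 ± 0.30, adjusted p = 0.0194), which 1 of the 2 untreated EC arrays detected. Onecut1 and Hes1 passed the filter through the tumour cell arrays alone, so their direction followed from the filter. The call of Rbpjl was lost without EC replicate 1 (adjusted p = 0.0577) and without EC replicate 2 (adjusted p = 0.1).

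The endoderm and epithelial lists held 3 tested genes each, of which 100% and 66.7% were called, where 53.9% of all features were. Afp, alpha-fetoprotein, was at least 9.87-fold higher in the tumour cells. Col4a1 (at least 10.7-fold) and Lamc1 (1.78 ± 0.30), both of the basement membrane, were higher in EC. Lamc1 had signals of 476 and 754 in untreated EC, 213 in AS and 600 in AS-Tspan8 cells, and the last lies within the untreated EC range. Krt19, a ductal keratin, had 60.9 and 77.4 in untreated EC, 9550 in AS and 20400 in AS-Tspan8 cells, at least 268-fold. Krt8 was higher in EC by 1.59 ± 0.15, with signals of 237 and 261 in untreated EC, 128 in AS and 234 in AS-Tspan8 cells. Each of these genes has many known regulators, and which factor acted on them was not tested.

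Of the 4 GATA genes that either tumour line held, Gata2 and Gata3 differed 2-fold or more after normalization, with 1 array per line and no replicate check. Signals, before any scaling, of AS and AS-Tspan8 cells were 3970 and 437 for Gata2, 74.1 and 319 for Gata3, 242 and 477 for Gata4, and 221 and 231 for Gata6. After normalization Gata2 was 16.6-fold lower in AS-Tspan8 cells (-4.05 on the log2 scale, -3.38 without scaling), and Gata3 was at least 2.54-fold higher. The Gata3 difference, against an array that did not detect it, was 1.68 after normalization, 3.39 without scaling, 1.00 in the authors' processed table and 0.79 without background correction, so its size and its place past 2-fold depended on the processing. Gata4 differed by 0.16 after normalization and by 1.14 without scaling, and Gata6 by -0.69 and 0.03, so the difference of Gata6 changed sign with the scaling. The summed signal of the AS-Tspan8 array, 21955880, exceeded that of the AS array, 13714493, and without scaling the median of all features was 0.87. Of 9690 features 5.75% differed 2-fold or more, 3.2% higher and 2.55% lower in AS-Tspan8 cells, and no p-value is given.

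List genes that differed 2-fold or more between the lines lay on both sides. Cyp19a1 went from 93.7 in AS to 3460 in AS-Tspan8 cells (4.66 on the log2 scale), while Cyp11a1 went from 2250 to 801 (-2.39) and Inha from 1340 to 732 (-1.80). Tnnt2 went from 6150 to 2590 (-2.12), and Nppb, the natriuretic peptide of the heart, from 86.2, not detected, to 606, at least 4.68-fold. Vcam1 went from 98.3 to 3230 (4.46) and Dab2 from 564 to 2120 (1.00). Lyl1, the Gata2 partner, went from 362 to 224 (-1.50). Differences of list genes between the lines were not followed under other processing. Cpa1, a digestive enzyme, was 146 in AS cells and not detected in AS-Tspan8 cells, at least 1.94-fold lower. Targets of 1 list thus went both ways between the lines.

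**Figure D3:**
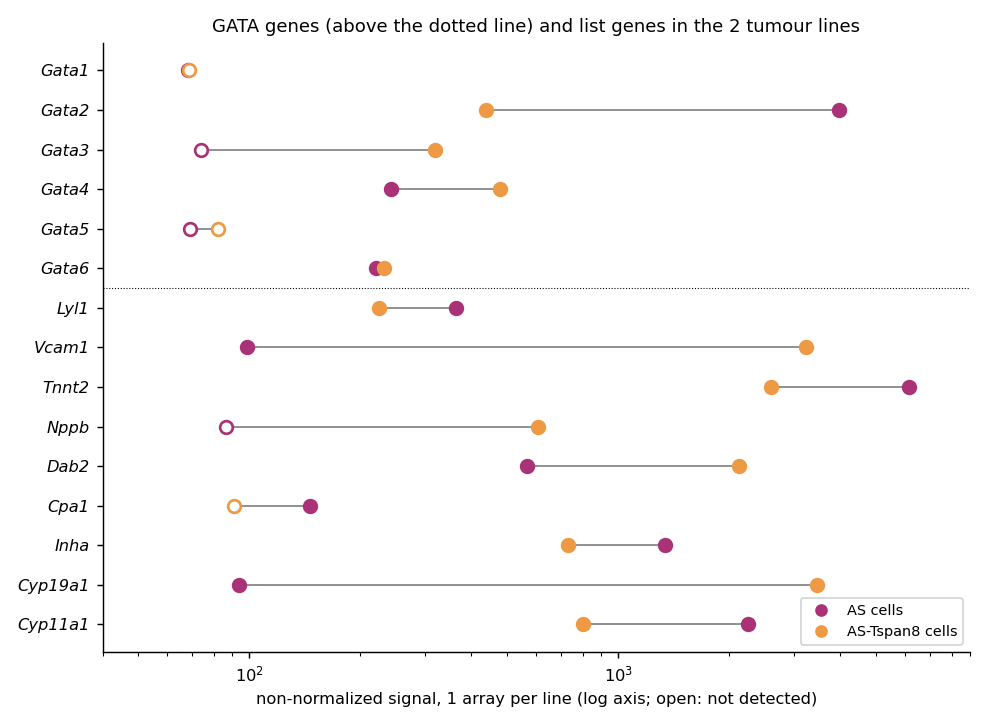
Non-normalized signal (horizontal axis, log scale, arbitrary units) of the 6 GATA genes and of the list genes that differed 2-fold or more after normalization, with 1 array of AS cells (purple) and 1 of AS-Tspan8 cells (orange). Filled points were detected and open ones were not. Gata2 lies at 3970 and 437 and Gata3 at 319 in AS-Tspan8 cells alone, while Cyp19a1 and Vcam1 show the widest gaps among the list genes.

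The next question is which of the RNAs of tumour cells are found in their exosomes. For the GATA genes the answer depended on the scaling. Gata6 in exosomes was 3.08 ± 0.48 above the cells on the log2 scale after quantile normalization and 1.67 ± 0.39 below them (-1.67) without scaling between arrays. It was 2.32 above without background correction and 2.61 above in the authors' processed table. By signal, AS exosomes held 0.675 and 0.52 times the Gata6 signal of AS cells, and AS-Tspan8 exosomes 0.421 and 0.458 times that of their cells. Without scaling the median of all features was -3.63, against -1.22 after normalization, so on both scales Gata6 lay above the median of the features tested. Gata2 in exosomes differed from cells by -0.64 ± 1.08 after normalization and by -4.71 ± 0.61 without scaling. By signal AS exosomes held 0.0262 and 0.0453 times the Gata2 signal of AS cells, and only the second array detected it. Gata4, seen in both lines, was detected on no exosome array, where AS exosomes gave 75.0 and 76.0 and AS-Tspan8 exosomes 58.8 and 63.7. No bound is given for it, because the lowest detected signal on the exosome arrays lay above the Gata4 level of the cells after normalization. Gata3, seen in AS-Tspan8 cells, had 70.8 and 71.4 in their exosomes and was not detected. Gata4 passed the filter on dim probes through the cell arrays alone, so its direction followed from the filter. Of the 3 fitted members 2, Gata4 (lower) and Gata6 (higher), were called, where 56.9% of 9434 features were called, 16% higher and 41% lower in exosomes. That count is a description too, and the number of features called fell from 5371 to 3562 without AS-Tspan8 exosomes replicate 1.

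**Figure D4:**
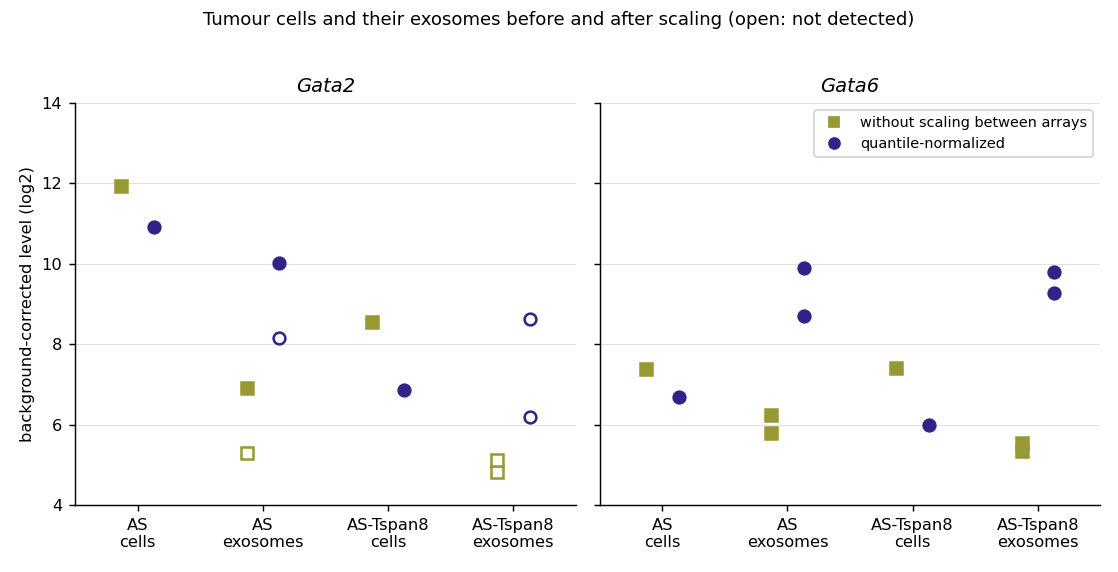
Background-corrected level (vertical axis, log2) of Gata2 and Gata6 on the 2 tumour cell arrays and the 4 exosome arrays, without scaling between arrays (squares) and after quantile normalization (circles). Open symbols were not detected. The squares of Gata6 in exosomes lie below those of the cells and the circles above them, while the Gata2 symbols of AS exosomes lie below those of AS cells on both scales.

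The exosomes of the 2 lines could be compared in Gata2, Gata4 and Gata6. Gata6 differed by 0.25 ± 0.56 after normalization and by -0.57 ± 0.22 without scaling, AS-Tspan8 minus AS, so its sign followed the scaling. Gata2 differed by -1.67 ± 1.26 with 1 of 4 arrays detected, and Gata4 was detected on none. Neither these 3 genes nor any other of the 9434 features was called (0%), with 618 features at an unadjusted p under 0.05 in limma where 472 would be even. The number at that p lay above or below 472 depending on which exosome array was left out. The difference between the lines in exosomes minus cells was tested as an interaction in limma, and 0% of 9434 features were called (305 at an unadjusted p under 0.05). Of 10 tested partners 2 were called higher and 2 lower in exosomes than in cells (40%), where 56.9% of all features were called. Srf, Smad1 and Sp1 were among them, and Smad1 and Sp1 passed the filter on dim probes through the cell arrays alone. Srf, a factor of muscle genes, was detected on all 4 exosome arrays at 354 to 610 and was 2.76 ± 0.35 above the cells (adjusted p = 0.00454), which turned to -2.12 ± 0.44 without scaling. Smad1, a carrier of BMP signals, was detected on no exosome array and on both cell arrays at 452 and 701 (lower in exosomes, adjusted p = 0.00239). Sp1, at 110 and 143 in cells and 63.2 to 68.4 in exosomes, had an adjusted p of 0.0193, which was 0.0638 without AS exosomes replicate 1, 0.0767 without AS-Tspan8 exosomes replicate 1 and 0.0633 without replicate 2. Mta2, a NuRD subunit, was at 215 to 325 in exosomes and 173 and 278 in cells, called higher at 4.91 ± 0.37 after normalization and not called at 0.15 ± 0.44 without scaling.

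The named genes with the profile most like each GATA gene were sought among 7853 genes over the 8 cell arrays, as the smallest root mean square distance between profiles centred on their own mean. Of the 8 arrays 6 are EC, so a profile is in effect the EC level against the 2 lines. Gata1 and Gata5 had ranges of 0.11 and 0.26 on the log2 scale and were left out. For Gata2, with a range of 6.12, the nearest were Cmtm8 (distance 0.28), Ass1 (0.46), Egflam (0.51), Rap1gap (0.53) and Cd83 (0.55). Cmtm8 had signals of 62.8 to 85.6 in the EC, 1020 in AS and 208 in AS-Tspan8 cells. For Gata3 the nearest were Rnase3 (0.08), Il13ra2 (0.13), Cxcl11 (0.15), C4bpb (0.16) and Bpifb3 (0.18), each at or near background in all but AS-Tspan8 cells. Il13ra2, a decoy receptor for an interleukin, had 62.5 to 82.7 in the EC, 83.7 in AS and 384 in AS-Tspan8 cells. For Gata4 they were Sh3kbp1 (0.10), Prkra (0.10), Cacna1h (0.11), Trim36 (0.12) and Chchd4 (0.12), and for Gata6 Ldhd (0.15), Dgat2 (0.15), Reck (0.16), Cyp4f6 (0.17) and Fam43a (0.18). Reck, an inhibitor of matrix proteases, had 5070 to 7590 in the EC, 2050 in AS and 2620 in AS-Tspan8 cells. The distances describe these arrays only.

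Promoters of list genes were searched for the hexamers AGATAA and AGATAG, and the hexamers TGATAA and TGATAG, on both strands, in the 250 bases before and 50 after each RefSeq start. Of the target genes with a probe and a promoter, 31 of 67 (46.3%) held at least 1, where 10155 of 33469 promoters (30.3%) did. A target gene was counted if any of its promoters held 1, while all promoters were counted singly. The 2 shares are therefore in unlike units, and a gene with several promoters has more chances of a match. By list, the genes with a hexamer were 3 of 6 in the steroid list, 7 of 16 in the cardiac list and 9 of 17 in the blood list. They were 4 of 7 in the endothelial list, 7 of 13 in the endoderm list, 1 of 5 in the smooth muscle list and 0 of 3 in the epithelial list. The targets were picked for known GATA regulation, so the share was not tested. Of the family itself, 1 of 4 promoters at hand held a hexamer, that of Gata3, after the start, and the stretches of Gata2, Gata3 and Gata6 printed above hold none. Stretches of 100 bases from 2 genes are shown because both genes differed between the tumour lines and hold 2 hexamers each, in capitals, on the plus strand of GRCr8. Inha, chr9:84442949-84443048, has them 145 and 111 bases before the start, and Nppb, chr5:163699848-163699947, 121 and 110 bases before it:
Inha: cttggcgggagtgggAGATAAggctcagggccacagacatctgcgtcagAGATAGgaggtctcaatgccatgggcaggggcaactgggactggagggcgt
Nppb: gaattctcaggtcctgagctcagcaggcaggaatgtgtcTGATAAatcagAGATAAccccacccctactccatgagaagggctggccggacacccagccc
Inha was higher in AS cells, 1340 against 732, and Nppb in AS-Tspan8 cells, 606 against 86.2, with 1 array per line. Both hold AGATAA, with AGATAG in Inha and TGATAA in Nppb, and whether any of these hexamers acts on its gene was not tested. A match of letters is no evidence that a factor binds there.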

How the data were processed

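Each RNA was labelled in 1 colour and measured on an Illumina rat array, per the labels. The deposited table pairs a non-normalized signal intensity with a detection p-value for every probe on every array, per the file headers. The authors also deposited processed intensity values, made by a method that the sources used here do not name, and these served as an alternative. Their array medians of 78.08 to 78.56 are nearly equal.

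From the non-normalized intensity, background was corrected with normexp (limma 3.58.1, R 4.3.3), the negative controls being inferred from the detection p-values, with an offset of 16. Arrays were then quantile normalized and taken to log2, within the 6 EC arrays, within the 6 tumour cell and exosome arrays, and within the 8 cell arrays. Probes were kept where 2 or more arrays of a fit had a detection p-value under 0.01, with 1 probe per gene, the one of highest mean. Quantile normalization gives all arrays 1 distribution and so lifts exosome arrays, which detect fewer probes. Probes were named from the platform annotation: 13793 of them with 1 symbol and 0 with several, while 8730 had no name here. Of those named, 13752 matched RefSeq (GRCr8) by gene ID. Promoters came from RefSeq too, and those of Gata4 and Gata5 were not used here.

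Differences came from limma's moderated test (lmFit, eBayes) on group means, adjusted by the Benjamini-Hochberg method. Exosomes were set against cells with the line as an added term, which assumes that the single cell arrays vary like the exosome arrays. The members and lists were chosen with earlier results of these data known. Named list genes were, for each list and comparison, up to 3 called members with the largest difference and detection throughout the higher group, or up to 2 of lowest p where none was called, of which the text gives a part. A bound sets the brighter group's mean against a floor, per array either the probe's own value or the lowest among detected probes, whichever is higher. Steps were tested on simulated data. Same-numbered EC arrays deviated together (correlations of 0.495, 0.375 and 0.555 between groups), so a replicate block was fitted as an alternative.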

Additional observations from a re-analysis of the deposited data

How the results depend on the processing

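Of 71 counts of called features under other settings, 66 stayed within 1.5 times the reported value. Most of these 66 were counts of 0 that stayed at 0, in the comparisons that called no feature, so they do not show that calls were stable. The 5 that moved were all counts for exosomes against cells or for the 2 tumour lines. Without scaling between arrays the exosome against cell comparison called 8585 features (433 higher, 8152 lower, 4714 of them shared with the reported calls) and the tumour lines differed 2-fold or more in 3741. The latter was 267 without background correction and 337 in the authors' processed table. Leaving out 1 exosome array at a time gave 3562 to 6974 calls for exosomes against cells, and leaving out 1 EC array gave 3838 to 5545 for untreated EC against tumour cells. Of 193 values of GATA genes, 157 stayed within a set limit (for fitted differences, the residual SD of the gene) and 35 moved past it. The other 1 turned its called direction, that of Gata6 between exosomes and cells without scaling (-1.67). Among 1007 values of list genes 9 lost their call and Srf turned (-2.12). The cause of each of these changes was not tested beyond the shift of the median given above. Gata2 was detected on 11 arrays at a detection p-value of 0.05 and on 2 at 0.001, and Gata6 on 12 and 7. With the replicate number as a block, 0 features were called in each of the EC comparisons and between the exosomes, with 166, 482, 188 and 330 at an unadjusted p under 0.05. The block was fitted in these comparisons only, and not in those that called features. Exosome numbers deviated oppositely (correlation -0.334), and with crossed numbers, tried after seeing the data, 0 were called as well.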
